A study of Arabidopsis thaliana with 6 samples.

Results

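A set of 10 genes of the UDP-glycosyltransferase (UGT) family were followed in fertilised flowers of Arabidopsis thaliana, in wild type and in the T-DNA mutant atnaod. They were UGT78D1 (AT1G30530), UGT78D2 (AT5G17050), UGT71C1 (AT2G29750), UGT72B1 (AT4G01070), UGT73B3 (AT4G34131), UGT73C5 (AT2G36800), UGT74F2 (AT2G43820), UGT76C1 (AT5G05870), UGT76C2 (AT5G05860) and UGT85A7 (AT1G22340). The genes were chosen by locus as enzymes that glycosylate flavonols, hormones and related small molecules, and every array probe whose annotated transcript belonged to 1 of these loci was taken. This gave 12 probes for 10 genes, of 34176 genes or transcripts with a probe on the array. All 10 passed the signal filter, as did 24457 genes in all.

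In atnaod a T-DNA sits in AtNAOD (AT4G17830), which encodes N-acetylornithine deacetylase, active in making ornithine. Plants of both genotypes grew on soil at 25 °C in days of 16 h light and 8 h dark, without any further treatment. Each genotype had 3 samples described as independent biological replicates, each a pool of about 100 whole flowers at stage 15 from 17 to 20 plants, on 1 single-colour array. The labels name 1 mutant line, with no second allele and no complemented line.

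UGT enzymes move a sugar from a UDP-sugar, usually UDP-glucose or UDP-rhamnose, onto a small acceptor molecule. The sugar makes the acceptor more soluble, allows its storage in the vacuole and, for hormones, commonly ends their activity. In flowers the same family decorates the flavonols and anthocyanins of petals, pollen and young seeds, and it conjugates salicylic acid, cytokinins and brassinosteroids.

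AtNAOD, as the check of the labels, had 2 probes that differed. One was well above background in 3 of 3 wild-type samples and in 0 of 3 atnaod samples. It was 369-fold lower with atnaod set to the detection floor (limma adjusted p of the measured change = 4.26e-07). The other was above background on all 6 arrays and lower by a log2 change of -1.23 (-1.64 to -0.81, adjusted p over all probes = 0.0286). Where the probes lie relative to the T-DNA was not analysed here. Without wild type 1, 2 or 3 the second probe had the higher mean and stood for the gene, at -1.27, -1.35 and -1.06 (adjusted p = 0.0492, 0.0877 and 0.0808). Between 73.2% and 79.2% of probes per array were well above background. The slide of samples 1 and 2 of each genotype was not that of samples numbered 3, whose overall signal was lower. All 5 markers of the whole flower (AG, SEP3, AP3, PI and CRC) were above background on every array. CRC stood at a log2 change of 0.59 (limma adjusted p = 0.0592) with groups apart. The other 4 stood below 0 with groups that overlapped. The summed level of 4 seed coat markers (BAN, TT2, TT8 and GL2) was 2.69 to 2.98 in wild type and 1.48 to 2.19 in atnaod, and that of 3 early seed markers (AGL62, LEC1 and MINI3) was -2.28 to -2.15 against -3.01 to -2.45, with PHE1 below background on all 6 arrays. Levels here and below are log2 intensity relative to the array's 75th percentile. The summed level of 5 pollen markers (VGD1, AT4G01470, AT3G47440, MGH3 and AT5G45880) overlapped between genotypes (3.74 to 3.99 against 3.46 to 4.37). Taken singly, all 5 overlapped too. Another pollen marker, STP9, was above background in 0 of 3 wild-type and 2 of 3 atnaod samples and was not tested. The part of these shifts in the results below was not tested, and in whole flowers fewer cells of a type and less RNA per cell cannot be told apart.

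Among the 10 genes, 3 rose in atnaod and 0 fell: UGT71C1, UGT76C2 and UGT85A7 (limma, adjusted p under 0.05 over all genes tested). Over all genes, 5.78% were called, 2.72% higher and 3.06% lower. The other 7 were not called. UGT85A7 entered the test through atnaod, where it was higher, since wild type 3 was below background. With only genes above background on all 6 arrays, 9 of the 10 were tested and 2 were called, UGT71C1 and UGT76C2. Both were higher, against 705 of 23481 genes called higher and 875 called lower under this filter. The fitted change lay above 0 in 9 of 10, with a median of 0.41 on the log2 scale, against 48.8% of all genes above 0 and a median of -0.01. In 7 of the 10 genes every atnaod sample lay above every wild-type sample, which was so in 15.3% of all genes (17% lay the other way), and the other 3 overlapped. At an unadjusted p under 0.05 stood 7 of 10, all higher in atnaod, against 11.9% of all genes higher and 13.9% lower. With the replicate number as a block 3 were called, all higher (UGT71C1, UGT74F2 and UGT85A7), against 2.58% of all genes. Of the 12 probes fitted singly 1 was called, that of UGT71C1, against 1.85% of all probes. The median difference of the 10 genes from their wild-type means was 0.35, 0.34 and 0.40 in the atnaod samples 1 to 3. In the wild-type samples 1 to 3 it was -0.05, 0.03 and -0.01, near 0 by construction. These 10 genes were listed with results of the same arrays known, so that the counts describe them and are no independent evidence.

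**Figure D1:**
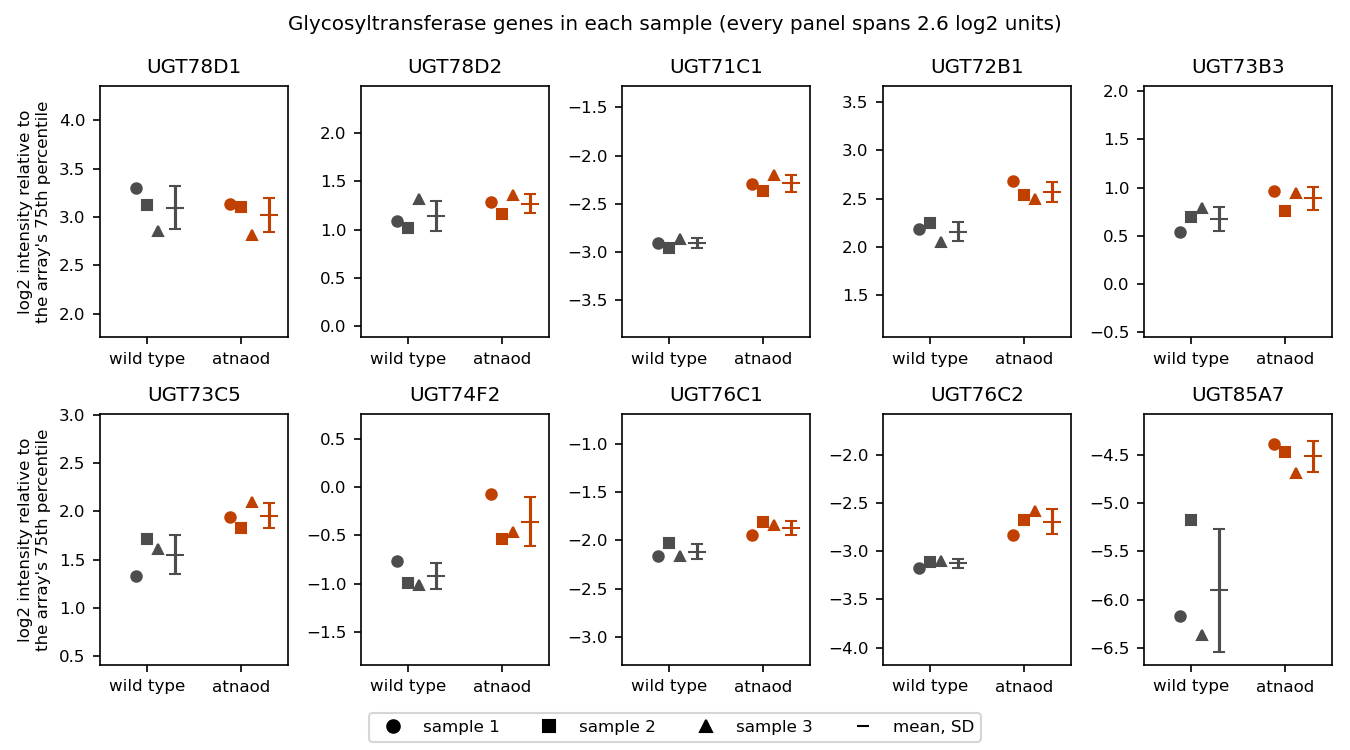
Level of each of the 10 glycosyltransferase genes in the 3 wild-type and 3 atnaod samples (log2 intensity relative to the array's 75th percentile), with the mean and SD beside the points. The groups are apart in UGT71C1, UGT72B1, UGT73C5, UGT74F2, UGT76C1, UGT76C2 and UGT85A7, and overlap in UGT78D1, UGT78D2 and UGT73B3.

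The enzymes that glycosylate the main flavonols of the plant showed no called change. UGT78D1, which adds rhamnose to flavonols, stood at 3.30, 3.13 and 2.85 in wild type (samples 1 to 3, in this order throughout) and at 3.13, 3.11 and 2.82 in atnaod. The groups overlapped, and sample 3 was lowest in both genotypes. Its change was -0.08 (95% interval -0.42 to 0.27, adjusted p = 0.784). Its sign turned without wild type 1 or without atnaod 3 (0.025 in both).

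UGT78D2, which adds glucose to flavonols and anthocyanidins, stood at 1.09, 1.01 and 1.32 in wild type and at 1.28, 1.16 and 1.36 in atnaod. Here sample 3 was the highest of each genotype, and the groups overlapped. The change was 0.13 (-0.14 to 0.39, adjusted p = 0.520), which bounds a rise at 1.31-fold.

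UGT71C1, whose enzyme glucosylates quercetin and other phenolics in vitro, was the gene of the 10 with the lowest p. It stood at -2.90, -2.96 and -2.86 in wild type and at -2.29, -2.37 and -2.20 in atnaod. The groups were apart by 0.49, more than the range within either. It rose by 0.62 (SE 0.0879, 95% interval 0.41 to 0.83, adjusted p = 0.0246), which is 1.54-fold (1.33 to 1.77), higher in 3 of 3 atnaod samples, with 0.60 on slide 1 and 0.66 on slide 2. The call was lost without wild type 2, wild type 3, atnaod 2 or atnaod 3 (adjusted p = 0.0965, 0.0863, 0.0994 and 0.0670), while the change stayed between 0.57 and 0.66. It was also lost with another background correction (0.48, adjusted p = 0.0677) and with the deposited values (0.51, adjusted p = 0.0727).

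The 3 named genes whose levels over the 6 arrays were most like UGT71C1 were the NAC domain gene NAC060, BEH2, of the BES1 and BZR1 family of brassinosteroid-regulated transcription factors, and YAB3, a YABBY gene of lateral organ polarity. Their Pearson correlations rounded to 0.998 over 6 arrays that share the difference between genotypes, and 228 of 9252 named genes lay above 0.95. NAC060 rose by 0.92 (adjusted p = 0.0199) and YAB3 by 0.57 (adjusted p = 0.0282), while BEH2 stood at 0.23 (adjusted p = 0.129). Leaving out 1 sample ended the call of NAC060 in 3 of 6 cases and that of YAB3 in 5 of 6. Another background correction ended both calls, at 0.57 for NAC060 and 0.52 for YAB3 (adjusted p = 0.141 and 0.0925).

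UGT72B1 and UGT73B3, whose enzymes act on monolignols, pollutants and other phenolics, were not called. UGT72B1, which conjugates monolignols and chlorinated phenols and anilines, stood at 2.18, 2.24 and 2.05 in wild type and at 2.68, 2.53 and 2.49 in atnaod. These groups did not overlap. The change was 0.41 (0.18 to 0.64, adjusted p = 0.0578). A block for slide gave an adjusted p of 0.0402, and a trended and robust prior gave 0.0308, both calls.

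A second UGT72B1 probe gave -0.81, -0.81 and -0.22 for the wild-type samples and -0.23, -0.35 and -0.20 for atnaod. It differed by 0.52 on slide 1 and by 0.02 on slide 2, where wild type 3 lay inside the atnaod range, and its change was 0.36 (adjusted p over all probes = 0.259). UGT73B3, known for its part in the response to pathogens, stood at 0.54, 0.69 and 0.78 in wild type and at 0.96, 0.75 and 0.95 in atnaod. The groups overlapped at atnaod 2 and wild type 3. Its change was 0.22 (-0.04 to 0.47, adjusted p = 0.253).

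The brassinosteroid enzyme gene UGT73C5, whose product also detoxifies the fungal toxin deoxynivalenol, stood at 1.33, 1.72 and 1.61 in wild type and at 1.95, 1.83 and 2.09 in atnaod. Every atnaod sample lay above every wild-type sample, the nearest pair 0.11 apart. The change of 0.40 (0.10 to 0.71) was not called (adjusted p = 0.112). The second probe of the gene gave a like value of 0.41 (0.01 to 0.81, adjusted p over all probes = 0.205), with groups that overlapped.

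UGT74F2, which makes the glucose ester of salicylic acid, stood at -0.77, -0.99 and -1.02 in wild type and at -0.07, -0.54 and -0.47 in atnaod. Sample 1 was the highest of both genotypes, and the groups were 0.23 apart. The change was 0.57 (0.22 to 0.92, adjusted p = 0.0691), 0.58 on slide 1 and 0.55 on slide 2. With the replicate number as a block it was called (adjusted p = 0.0436), and the trended and robust prior gave a call too (0.0359).

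UGT76C2 and UGT76C1 are neighbouring genes whose enzymes glucosylate cytokinins on the purine ring. UGT76C2 stood at -3.18, -3.11 and -3.10 in wild type and at -2.83, -2.67 and -2.58 in atnaod. The wild-type samples lay within 0.08 of each other, and the nearest atnaod sample was 0.27 above them. It rose by 0.43 (SE 0.0958, 95% interval 0.21 to 0.66, adjusted p = 0.0488), which is 1.35-fold, higher in 3 of 3 samples. The adjusted p was 0.0516 with the replicate block. The call was also lost without wild type 1, 2 or 3 (adjusted p = 0.0861, 0.133 and 0.125) and without atnaod 2 or 3 (0.174 and 0.152).

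UGT76C1 stood at -2.16, -2.03 and -2.17 in wild type and at -1.95, -1.81 and -1.84 in atnaod, with groups 0.08 apart. Its change was 0.25 (0.04 to 0.46, adjusted p = 0.136). The shift of UGT76C2 was larger by 0.18 within arrays (exact two-sided permutation p = 0.10, 3 samples against 3).

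UGT85A7 belongs to the subfamily of UGT85A1, a cytokinin glucosyltransferase gene. Its probe was near background, with a processed intensity of 41.8, 72.4 and 16.0 for the wild-type samples and of 93.6, 128.3 and 52.4 for atnaod. It was well above background in 2 of 3 wild-type samples, wild type 3 being below, and in 3 of 3 atnaod samples. Its levels were -6.17, -5.18 and -6.37 against -4.39, -4.47 and -4.69, so that the wild-type samples spread over 1.19 and the atnaod samples over 0.31. It rose by 1.39 (SE 0.297, 95% interval 0.68 to 2.09, adjusted p = 0.0461), higher in 3 of 3 samples. The change was 0.55 with another background correction and 0.65 with the deposited values, both without a call (adjusted p = 0.213 and 0.216). Without wild type 2, the highest of its group, it was 1.75 (adjusted p = 0.0316), and the call was lost without wild type 1 or 3 (0.0977 and 0.116) or any 1 atnaod sample (0.0767, 0.149 and 0.103).

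**Figure D2:**
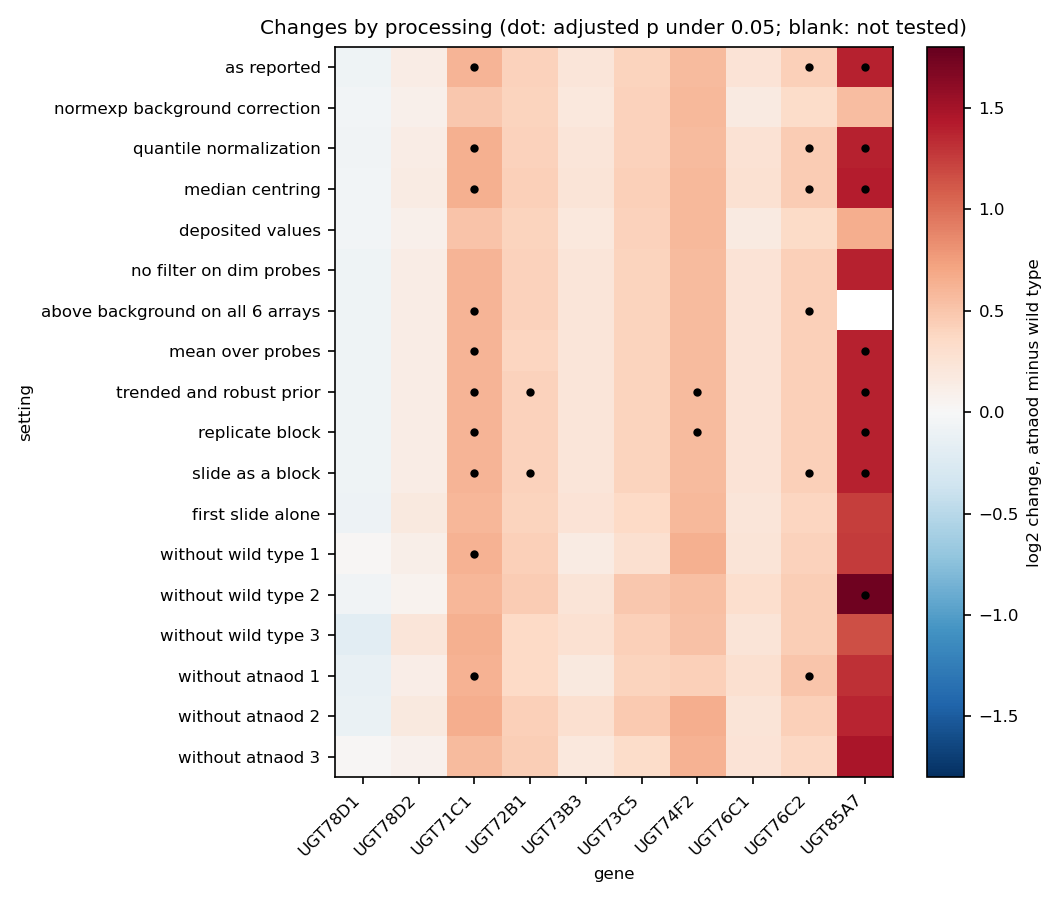
Fitted log2 change (atnaod minus wild type, colour) of each of the 10 genes (columns) under the reported setting and each alternative (rows), with a dot where the adjusted p was under 0.05. UGT71C1 holds most dots, and the colour of UGT85A7 is paler with another background correction (0.55) and with the deposited values (0.65) than as reported (1.39).

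Close relatives of the listed genes, 21 in all, were taken from the same gene clusters or, as for UGT72B1, from the same subfamily elsewhere in the genome. Of these 17 were tested, and limma called 0, with 5 higher and 1 lower at an unadjusted p under 0.05 (11.9% and 13.9% of all genes). Their median change was 0.24, 13 lay above 0, and in 7 all atnaod samples were above all wild-type samples while in 1 they were below (15.3% and 17% of all genes). The other 4, UGT73C2, UGT78D3, AT5G05880 and AT5G05900, were below background on all 6 arrays. With the replicate block UGT85A3 and AT1G01390 were called higher, the latter from wild-type values that were all below background. AT1G01390, UGT71C2, AT2G36770 and AT5G05890 entered the test through atnaod alone.

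All 4 measured neighbours of UGT85A7 had positive values. UGT85A3 stood at 0.66 (0.23 to 1.09, adjusted p = 0.0806, and 0.0467 with the replicate block), UGT85A5 at 0.58, UGT85A1 at 0.49 (0.18 to 0.79, adjusted p = 0.0724) and UGT85A2 at 0.24. Wild type 1 was the lowest sample of all 4. Their probes were above background on every array, unlike that of UGT85A7. The samples overlapped in UGT85A2, and a second UGT85A5 probe gave 0.18 (-0.19 to 0.55).

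Relatives of the phenolic and brassinosteroid enzymes held no called change. UGT72B3 stood at 0.32 (0.09 to 0.55, adjusted p = 0.100), UGT73B2 at 0.29, and UGT73C6, whose enzyme also glucosylates brassinosteroids, at 0.36 (-0.04 to 0.76, adjusted p = 0.230). AT1G01390, of the UGT72B1 group, was above background in 0 of 3 wild-type and 3 of 3 atnaod samples. It was 1.16-fold higher with wild type set to the detection floor. Its measured change was 0.85 (adjusted p = 0.0691, and 0.0467 with the replicate block), but 0.19 with another background correction and 0.26 with the deposited values (adjusted p = 0.785 and 0.738). UGT73B1, UGT71D1 and UGT71C2 stood at 0.05, 0.09 and 0.22, UGT73C1 at -0.21 and AT5G05890 at -0.08. On the first slide alone, UGT71C2 and UGT73B1 stood at -0.058 and -0.067. AT2G36770 and AT2G36780 stood at 0.18 and 0.26, and a second AT2G36780 probe gave 0.64 (0.11 to 1.17, adjusted p over all probes = 0.146).

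Values of opposite sign stood side by side in the salicylic acid and flavonol clusters, though the intervals of UGT74F1 and UGT78D2 held 0. UGT74F1, which makes the salicylic acid glucoside, stood at -2.61, -2.88 and -2.86 in wild type and at -2.82, -3.05 and -3.27 in atnaod, a change of -0.26 (-0.59 to 0.07, adjusted p = 0.293). The genotypes overlapped in UGT74F1. UGT74F2 shifted up relative to UGT74F1 by 0.83 within arrays, in 3 of 3 atnaod samples. AT5G17040, next to UGT78D2, stood at -0.42 (-0.73 to -0.10, adjusted p = 0.110), lower in 3 of 3 samples, and UGT78D2 shifted up relative to it by 0.54. For both pairs the exact two-sided permutation p was 0.10, the smallest that 3 samples against 3 can give. Over the 4 pairs compared, which were chosen after their values were seen, the adjusted p was 0.133 for these 2 and for UGT76C2 against UGT76C1. UGT78D2 against UGT78D1 gave a shift of 0.20 with samples that overlapped (exact permutation p = 0.50).

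**Figure D3:**
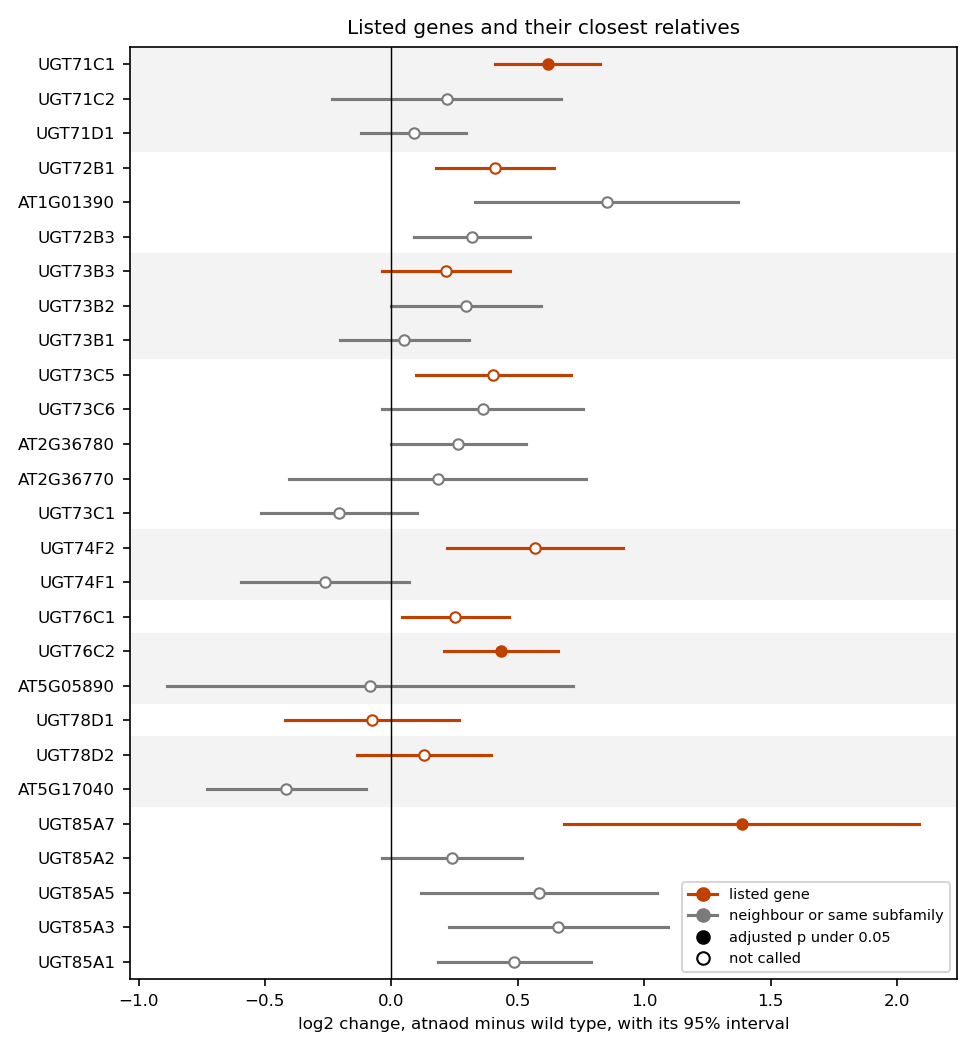
Log2 change (atnaod minus wild type) with its 95% interval for the 10 listed genes and the 17 tested relatives, in blocks by cluster or subfamily, filled where the adjusted p was under 0.05. The 4 relatives of UGT85A7 lie between 0.24 and 0.66, while UGT74F1 (-0.26) and AT5G17040 (-0.42) lie on the other side of 0 from UGT74F2 and UGT78D2. AT1G01390 is drawn as measured, though below background in wild type.

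Across the family as named in the reference table, 54 of 64 genes with a UGT name were tested. Relatives given above by locus had no UGT name in it and were not counted. They include AT5G17040, lower, and AT1G01390, higher (limma unadjusted p = 0.0165 and 0.00614). The 3 called genes were those of the list, and 0 were lower. At an unadjusted p under 0.05 stood 16 higher and 0 lower (11.9% and 13.9% of all genes). In 39 of the 54 the change was above 0 (48.8% of all genes), and the median was 0.13. Without the 10 listed genes, limma called 0 of 44, with 9 higher and 0 lower at an unadjusted p under 0.05 (11.9% and 13.9% of all genes). In 12 of these 44 all atnaod samples lay above wild type and in 0 below (15.3% and 17% of all genes). The change was above 0 in 30 of the 44, and the median was 0.09. With the replicate block 5 of the 54 were called, all higher (2.58% of all genes): UGT71C1, UGT74F2, UGT85A7, UGT85A3 and UGT76E2.

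The pathway lists here and below left out the 10 listed genes. The list of flavonol synthesis and glycosylation also held the UDP-rhamnose synthases and anthocyanin glycosyltransferases. Of its 16 genes, all tested, 1 rose and 0 fell (2.72% and 3.06% of all genes), the median was -0.01, and 8 lay above 0 and 8 below. MUM4, a UDP-rhamnose synthase gene whose product supplies rhamnose for seed coat mucilage, stood at 1.40, 1.17 and 1.05 in wild type and at 1.77, 1.83 and 1.78 in atnaod. It rose by 0.59 (SE 0.111, adjusted p = 0.0362). Its call was lost without wild type 2 or 3 (adjusted p = 0.121 and 0.106) and without atnaod 1, 2 or 3 (0.0523, 0.138 and 0.103).

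None of the 6 enzyme genes of flavonol synthesis on the list (TT4, TT5, F3H, TT7, FLS1 and OMT1) was called, 5 standing below 0 and OMT1, a flavonol methyltransferase gene, at 0.18. TT7, the flavonoid hydroxylase gene that turns kaempferol precursors into quercetin precursors, stood at 1.76, 1.45 and 1.61 in wild type and at 1.06, 0.56 and 0.11 in atnaod, a change of -1.03 (-1.58 to -0.48, adjusted p = 0.0510, and 0.0464 with the replicate block). The flavonol synthase gene FLS1 stood at -0.26 (-0.45 to -0.06, adjusted p = 0.107) and the flavanone hydroxylase gene F3H at -0.29 (adjusted p = 0.174), each lower in 3 of 3 samples. Of the seed coat markers BAN, TT2 and TT8 fell by 1.06, 1.02 and 0.65, and GL2 stood at -0.95 (adjusted p = 0.0516). Each of these 3 calls was lost when any 1 sample but atnaod 1 was left out.

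Salicylic acid genes held no called change. Of 13 tested limma called 0, with 3 higher and 1 lower at an unadjusted p under 0.05 (11.9% and 13.9% of all genes). The median was -0.01. In 3 of the 13 all atnaod samples lay above all wild-type samples and in 0 below (15.3% and 17% of all genes). The salicylic acid receptor genes NPR1 and NPR3 stood at 0.41 (0.16 to 0.66, adjusted p = 0.0678) and 0.39 (adjusted p = 0.144), and PBS3, an enzyme gene of salicylic acid synthesis, at 0.27 (adjusted p = 0.187), all 3 with groups that did not overlap. The defence marker PR2 stood at -0.96 (-1.90 to -0.01, adjusted p = 0.189) with groups that overlapped, and PR1 was below background on all 6 arrays.

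Of 28 cytokinin genes tested 1 rose and 0 fell, near the 2.72% and 3.06% of all genes, with a median of 0.05. UGT76C1 and UGT76C2, of which the latter was called higher, were not counted here. CKX7, a cytokinin oxidase gene, stood at -1.70, -1.55 and -1.65 in wild type and at -1.14, -1.21 and -1.17 in atnaod, apart by 0.34 or more. It rose by 0.46 (SE 0.0847, adjusted p = 0.0357). The adjusted p was 0.0512 with the replicate block, and 0.0568 to 0.129 when any 1 sample was left out. The cytokinin receptor gene AHK3 stood at 0.33 (adjusted p = 0.110), and UGT85A1, given above, was also on this list. IPT7, of cytokinin synthesis, was below background in all wild-type samples and 1.95-fold higher in atnaod with wild type set to the detection floor. Its measured change was 1.098 (adjusted p = 0.114), 0.68 without atnaod 3, and 0.43 and 0.48 with another background correction and with the deposited values. With the replicate block 2 genes of the list were called, CKX4 and IPT3, both higher (2.58% of all genes), though in each the genotypes overlapped. CKX4 was above background in 1 of 3 wild-type samples and entered the test through atnaod.

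Of 18 brassinosteroid genes tested 1 rose and 0 fell (2.72% and 3.06% of all genes), with a median of 0.19 and 11 above 0 (48.8% of all genes). The receptor gene BRI1 stood at 0.68, 0.68 and 0.59 in wild type and at 1.26, 1.12 and 1.15 in atnaod, and rose by 0.52 (SE 0.0852, adjusted p = 0.0285). Its probes differed: 2 others gave 0.21 and 0.12, and the mean over probes was 0.28 without a call (adjusted p = 0.265). The call was also lost without wild type 1, 2 or 3 (adjusted p = 0.0514, 0.103 and 0.0983) and without atnaod 2 or 3 (0.114 and 0.0790). CYP72C1, of brassinosteroid inactivation, stood at 0.47 (0.22 to 0.73, adjusted p = 0.0526). A second CYP72C1 probe gave 0.07 (-0.76 to 0.89, adjusted p over all probes = 0.933). The synthesis gene CPD stood at 0.35 (adjusted p = 0.0782) and the inactivation gene BEN1 at 0.29 (adjusted p = 0.121).

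**Figure D4:**
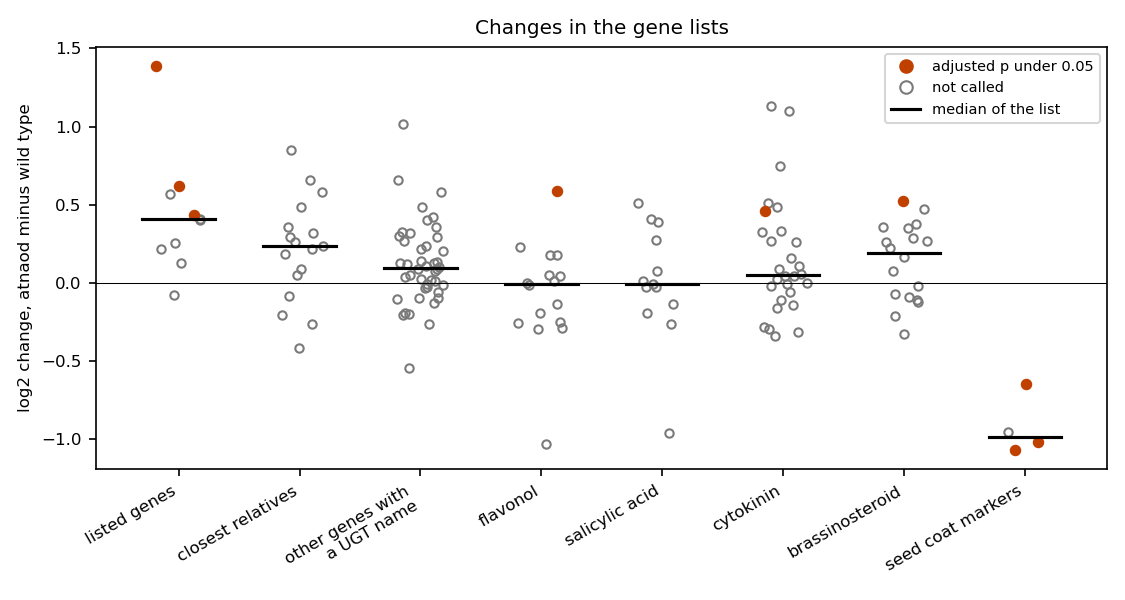
Log2 change (atnaod minus wild type) of every tested gene in the listed glycosyltransferases, their relatives, the other genes with a UGT name, the 4 pathway lists and the seed coat markers, with the median of each as a bar and called genes filled. The listed genes have a median of 0.41, the pathway lists lie between -0.01 and 0.19, and the seed coat markers at -0.99.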

How the data were processed

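The authors' scanner files hold the fluorescence intensity of each spot, read with Agilent Feature Extraction 10.5.1.1 per the file headers (10.5 per the submitters' processing notes), with background subtracted and spatial trend removed within the array. Per the labels, 200 ng of RNA was labelled with Cy3. The deposited values are intensity on a linear scale too. Set against the scanner files, each column equalled the median signal of the spots multiplied by 1 factor (0.732 to 1.61 by array) and was not centred by gene. Column medians were 450.9 to 518.9.

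Controls aside, an array held 43803 spots of 43603 probes. Levels are log2 processed intensity minus the array's 75th percentile, without outlier spots (2 to 35 per array). No spot of a listed gene was saturated. A probe was tested where all 3 arrays of either genotype were well above background (32496 probes), and a gene was represented by its probe with the highest mean (24457 genes). The test was limma 3.58.1 (lmFit and eBayes, in R 4.3.3), two-sided, with Benjamini-Hochberg adjustment over all genes and a threshold of 0.05. A probe fit adjusted over all probes stood beside it. The code was tested on simulated data. For a gene not above background in 1 genotype, a fold was computed with that genotype set to the detection floor, each array's lowest signal above background. It is no strict bound, since signals above that level could also fail the background check. The number of arrays limits the precision, and probe sequences and cross-hybridisation between close relatives were not analysed here.

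Named were the 10 genes, their relatives, AtNAOD, the 4 genes of lowest p in each pathway list, and the 3 genes most like the listed gene of lowest p. PR1, the markers and genes called only with a block were named after their values were seen. The genes, lists and tests were chosen with earlier results of these data known. Names came from the TAIR10.1 table of genes, with the locus used for the rest.

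Replicate numbers come from the labels. Across genes, deviations from the genotype mean correlated at 0.190, 0.111 and 0.535 between samples of equal number. Wild type 1 with atnaod 2 gave 0.215, and wild type 2 with atnaod 1 gave 0.105. These values thus do not show pairing by number within slide 1, and the replicate block is given as an alternative where it changes a call. Combinations of unequal number lay between -0.354 and 0.215, and number 3 is also the pair on the second slide. Alternatives were another background correction (normexp, offset 50, with 5 spots of extreme local background set to the array's median), quantile normalization, median centring, the deposited values, 2 other filters, the mean over probes, a trended and robust prior, replicate or slide as a block, the first slide alone, and leaving out each sample.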

Additional observations from a re-analysis of the deposited data

How the results depend on the processing

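The count of called listed genes was 3 as reported. It was 0 with the normexp background correction, 0 with the deposited values, 0 without the filter on low signals and 0 with slide 1 alone (limma, with 6, 6, 7 and 5 at an unadjusted p under 0.05), and 0 to 2 when 1 sample was left out. Over all genes the count was 1414 as reported, and 243, 12, 22 and 13 under these 4 settings. At an unadjusted p under 0.05 stood 4761, 4710, 6068 and 3758 genes under them, of 34176 without the filter and 24457 otherwise. The count over all genes was 2259 with a trended and robust prior, 2123 with slide as a block and 15 to 1551 without 1 sample. Genes with a UGT name numbered 3 as reported, 0, 0, 0 and 0 under those 4 settings, 8 with the prior, 5 with the replicate block, 6 with slide as a block and 0 to 3 without 1 sample. Genes of the relatives and pathway lists numbered 3 as reported, 1, 0, 0 and 0 under those 4 settings, 5 with the filter on all 6 arrays, 7 with the prior, 7 with the replicate block, 8 with slide as a block and 0 to 3 without 1 sample. Of the 12 probes of the listed genes 1 was called as reported, 0, 0, 0 and 0 under those 4 settings, 2 with median centring, 4 with the prior, 3 with the replicate block, 4 with slide as a block and 0 to 1 without 1 sample. The cause of these moves was not tested.

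Of the listed genes, UGT71C1 kept its call in 9 of 17 alternatives, UGT85A7 in 7 of 16 and UGT76C2 in 5 of 17. UGT72B1 and UGT74F2 were each called in 2 of 17. The sign was kept in all alternatives run by 9 of the 10 genes, the exception being UGT78D1 (0.025 without wild type 1 and 0.025 without atnaod 3, range -0.19 to 0.025). Among relatives the sign turned for UGT71C2 (-0.058 on slide 1) and UGT73B1 (-0.067 on slide 1, and -0.017 to 0.13 leaving out 1 sample). It also turned for AT2G36770 (-0.030 to 0.45 leaving out 1 sample, lowest without wild type 1) and AT5G05890 (-0.46 to 0.17, with 0.049, 0.17 and 0.041 when wild type 1, atnaod 2 or atnaod 3 was dropped). With the replicate block UGT76C2 and CKX7 lost their calls, and among the genes named here UGT74F2, UGT85A3, AT1G01390, UGT76E2, TT7, CKX4, IPT3, GL2 and CRC gained one, and the block changed no other call among them. The changes of UGT85A7, AT1G01390 and IPT7, whose probes are near or below background in wild type, moved by over 1.5 times with the background correction. Among other named genes, UGT76E2 moved from 1.01 to 0.59 with it, and NAC060 from 0.92 to 0.57. CKX4 moved from 1.13 to 0.40, and IPT3 from 0.75 to 0.40. The median change of all genes lay between -0.05 and 0.01 in the alternatives run.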

Other observations

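Outside the listed genes and their relatives, the genes with a UGT name of largest change and of lowest p were chosen after their values were seen. UGT76E2 stood at -4.87, -4.51 and -4.67 in wild type and at -4.16, -3.69 and -3.14 in atnaod, a change of 1.01 (95% interval 0.42 to 1.60, limma adjusted p = 0.0617, and 0.0479 with the replicate block). It was above background on all arrays, and slide 1 gave 0.76 and slide 2 gave 1.52. Another background correction gave UGT76E2 a change of 0.59 (-0.03 to 1.21, adjusted p = 0.281). UGT74D1, whose enzyme glucosylates auxins, stood at 1.88, 1.93 and 1.98 in wild type and at 2.49, 2.22 and 2.34 in atnaod, a change of 0.42 (0.19 to 0.65, adjusted p = 0.0544). Both were higher in 3 of 3 atnaod samples.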
